A study of Mus musculus with 19 samples.

Results

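The 35 genes described here mark the nephron progenitors, the stromal progenitors and the growth programme of the fetal kidney, and were chosen by name as a list. All 35 were found by gene symbol among the 54146 genes listed in the RNA files. They fall into 4 roles. There are 8 transcription factors of the cap mesenchyme and its neighbourhood, 12 other genes of the progenitor zone, 10 genes of fetal growth and RNA binding, and 5 genes of stromal progenitors.

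Messenger RNA was measured in B6C3F1/J mice, in whole kidneys taken at postnatal day 21. The 3 control libraries came from animals of genotype Dnmt3ab f/f, in which the DNA methyltransferase genes Dnmt3a and Dnmt3b are floxed and no Cre is named. The 2 libraries of the double knock-out, called KspCre DKO here, came from animals of genotype KspCre Dnmt3ab f/f, which carry the same floxed genes together with KspCre. KspCre is a Cre under the promoter of Ksp-cadherin (Cdh16), a promoter known for activity in the ureteric bud and in tubule epithelia. Nephron progenitors and stroma of a whole-kidney sample therefore need not carry the deletion. Separate animals are not stated for the libraries within a group, so the tests measure only the spread between these libraries, which may be technical. The study's title concerns fetal enhancers that these enzymes switch off, and the comparison asks whether fetal kidney genes differ in abundance where the enzymes were deleted. The bisulfite samples are not analysed here.

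In the fetal kidney, nephrons arise from a cap of mesenchyme around each tip of the branching ureteric bud. Six2, Cited1, Eya1, Sall1 and Osr1 are active in this cap, where Six2 keeps the cells from differentiating. Stromal progenitors around the caps express Foxd1. In the mouse, the cap is used up in the first days after birth, before the age sampled here. A value of these genes at this age therefore does not by itself show that cap cells remained. Lin28a and Lin28b block the maturation of let-7 microRNAs in fetal cells, and Hmga2 and the Igf2bp genes are widely described targets of let-7.

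Values are TPM, transcript abundances per length scaled to the same sum in each library. Read numbers cannot be recovered from them, so depth is unknown, and a gene listed at 0 can be a failed estimate. The libraries differed in how many genes were above 0 TPM, with 18488 to 20510 in 4 libraries and 14710 in KspCre DKO replicate 2. Mitochondrially encoded genes held 31.0% of that library and 18.2% to 23.2% of the others. All 8 markers of kidney tissue were above 0 in each library. Cdh16, whose promoter names the Cre, stood at 895 to 986 TPM across the controls and 906 to 1121 TPM in KspCre DKO. Other markers differed more between groups. Aqp2 stood higher, at 347, 240 and 426 TPM across the controls against 1414 and 1218 TPM. Umod stood lower, at 802, 489 and 542 TPM against 285 and 193 TPM. No marker of this list passed the test described below, but Aqp2 lay at its edge (limma adjusted p = 0.0512). TPM of the targeted genes could not check the genotype labels. Dnmt3a ranged from 13.2 to 19.0 TPM across the controls and stood at 9.98 and 14.2 TPM in the KspCre DKO libraries, and Dnmt3b ranged from 1.82 to 2.86 TPM against 2.29 and 3.25 TPM.

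Six2, the gene that holds cap cells undifferentiated, was listed at 0 in most libraries, as were 6 other members. Six2 was listed at 0 in 4 of the 5 libraries and at 0.09 TPM in control replicate 3. Fgf8, a signal of the first epithelial vesicle, and both Lin28 genes were listed at 0 in all 5 libraries. Meox2, a homeobox factor of mesenchyme, Rspo3, a secreted enhancer of Wnt signalling, and Tbx18, a factor of ureteral and stromal mesenchyme, were above 0 in 2 libraries each. These were control replicate 1 and KspCre DKO replicate 1, the libraries with the most genes above 0. In these 2 libraries, in that order, Meox2 stood at 0.03 and 0.52 TPM and Rspo3 at 0.51 and 0.55 TPM. Tbx18 stood at 0.09 and 0.01 TPM. None of these 7 genes was above 0 in both KspCre DKO libraries. With depth unknown, the values do not show that their RNA was absent.

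Fewest members were detected in the library with the fewest genes above 0. Of the 35 members, 31, 28 and 29 were above 0 TPM in control replicates 1, 2 and 3. The corresponding numbers were 31 in KspCre DKO replicate 1 and 25 in KspCre DKO replicate 2. At 1 TPM or more the counts lay closer together, at 16, 16 and 17 across the controls and 18 and 16 in the KspCre DKO libraries. Across all listed genes, 34.1% to 37.9% were above 0 in 4 libraries and 27.2% in KspCre DKO replicate 2. In all, 25 members were above 0 in each library, and Cited1, Afp and Fibin were above 0 in all but KspCre DKO replicate 2.

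**Figure D1:**
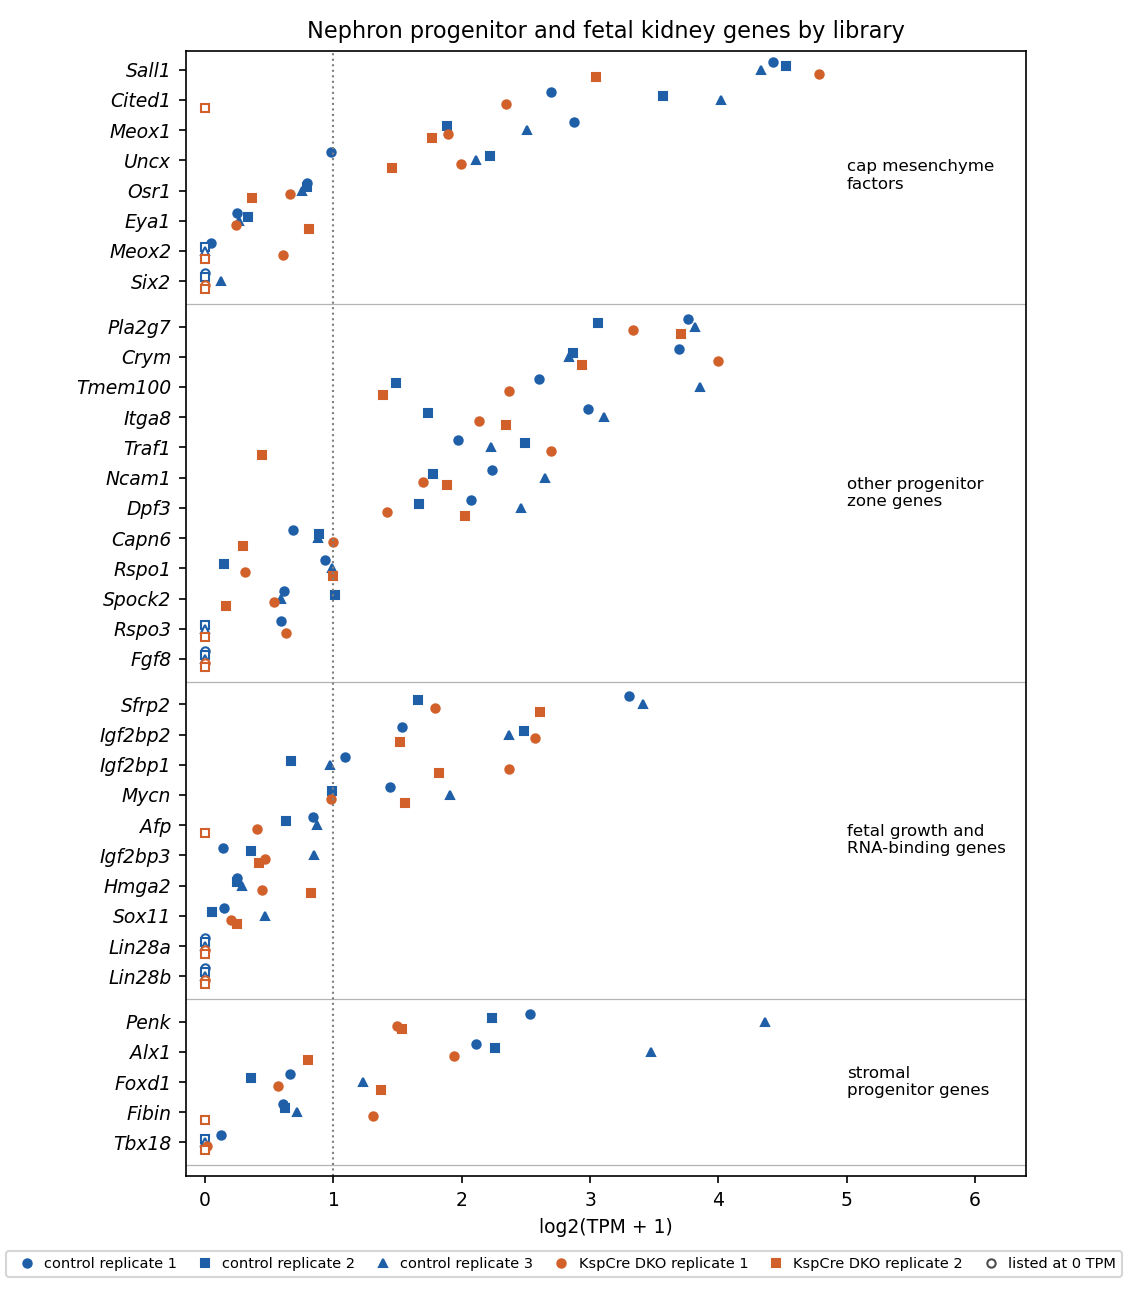
Level of each of the 35 members as log2(TPM + 1) on the horizontal axis, 1 point per library, with blue for the 3 controls, orange for the 2 KspCre DKO libraries and open symbols for a value of 0. The dotted line marks 1 TPM: Sall1 lies farthest to the right at 7.25 to 26.6 TPM, while Six2, Fgf8, Lin28a and Lin28b sit at the left edge in both groups.

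DNA methylation acts at CpG dinucleotides, so the 250 bases upstream of the start site are shown for Six2, Cited1 and Afp. Six2 was listed at 0 in nearly every library. Cited1 and Afp were both above 0 in all but KspCre DKO replicate 2, and Afp was below 1 TPM in every library. Sequences are from RefSeq on build GRCm38.p6, all written 5′ to 3′ on the strand of the gene, with each CpG in capitals. They cover chr17:85688255-85688504 on the minus strand for Six2, chrX:102252182-102252431 on the minus strand for Cited1 and chr5:90490464-90490713 on the plus strand for Afp.
Six2: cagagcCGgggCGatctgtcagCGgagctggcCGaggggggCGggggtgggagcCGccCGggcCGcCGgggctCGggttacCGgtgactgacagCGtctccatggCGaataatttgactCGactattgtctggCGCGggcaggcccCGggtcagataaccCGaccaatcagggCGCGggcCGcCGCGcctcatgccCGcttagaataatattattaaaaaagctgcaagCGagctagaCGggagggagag
Cited1: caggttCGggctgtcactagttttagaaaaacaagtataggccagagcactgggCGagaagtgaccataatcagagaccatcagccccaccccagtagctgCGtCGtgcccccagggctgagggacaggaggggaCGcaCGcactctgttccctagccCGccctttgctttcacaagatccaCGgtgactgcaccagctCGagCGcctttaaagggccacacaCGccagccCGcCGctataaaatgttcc
Afp: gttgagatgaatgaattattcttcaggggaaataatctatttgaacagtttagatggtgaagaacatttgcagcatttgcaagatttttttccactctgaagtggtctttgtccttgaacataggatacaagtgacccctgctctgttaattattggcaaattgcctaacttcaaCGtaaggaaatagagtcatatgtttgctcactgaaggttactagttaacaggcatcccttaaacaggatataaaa
The motif searched was CG, which reads the same on both strands. Six2 held 26 of these dinucleotides, and 9.6% of all 32851 promoter windows of the same length held as many or more. Cited1 held 13 at the outermost of its 3 listed starts, a number reached by 31.5% of windows, and 9 and 30 at the other starts. Afp held 1, a number reached by 92.1% of windows. The methylation state of these windows was not examined. Only 24 of the 35 members (68.6%) had a promoter entry, below the 80% needed, so a check of CpG content over the whole list is void. The members without an entry are Eya1, Osr1, Meox1, Crym, Tmem100, Rspo3, Ncam1, Fgf8, Igf2bp1, Penk and Alx1.

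KspCre DKO libraries were compared with controls over the 13963 genes whose mean over all libraries reached 1 TPM, by limma on log2(TPM + 1) with Benjamini-Hochberg adjustment. Over all genes tested, 23 passed an adjusted p of 0.05 (0.165%), 14 higher (0.1%) and 9 lower (0.0645%). The split was 23 and 7 when libraries were scaled by the median of ratios, and with mitochondrially encoded genes removed it was 26 and 11. Of the 35 members, 17 passed the filter on level and 18 did not. None of the 17 passed the test by limma, and the smallest adjusted p among them was 0.304. At an unadjusted p below 0.05 there were 4, Cited1, Penk and Alx1 with lower means and Igf2bp1 with a higher mean in the KspCre DKO group, where 10.3% of all tested genes were below that value. An exact permutation of 3 against 2 libraries has 10 splits and cannot give a p below 0.1 for any single gene. In whole kidneys, fewer cells of a type and less RNA per cell cannot be told apart.

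Most tested members had a lower mean in the KspCre DKO group, as did most genes. The log2 fold change of KspCre DKO minus control was below 0 for 15 of the 17 tested members, with a median of −0.43, against 61.7% of all tested genes and a median of −0.14. With median-of-ratios scaling 13 of 17 members and 52.3% of all genes were below 0, and that scaling moved the median of all genes to −0.03 and that of the members to −0.32. No test was made of the list as a whole. The KspCre DKO libraries differed in how they stood to the controls. In KspCre DKO replicate 1, 6 tested members lay below the lowest control and 5 above the highest, against 19.9% and 40.0% of all tested genes. In KspCre DKO replicate 2, 8 members lay below the lowest control and 1 above the highest, against 57.7% and 16.7% of all tested genes. Without KspCre DKO replicate 2, 11 of 17 members were below 0 with a median of −0.47, while 38.5% of all tested genes were below 0 and their median was 0.13. With KspCre DKO replicate 1 left out instead, 14 of 17 members were below 0 with a median of −0.33, against 73.0% and −0.39 for all genes. In that comparison, which rests on 1 KspCre DKO library taken to vary like the controls, Cited1 and Sall1 passed (limma adjusted p = 0.0436 and 0.0473). So did 560 of all 13849 genes tested there (4.04%), of which 470 were lower and 90 higher, against 0.165% with all 5 libraries.

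**Figure D2:**
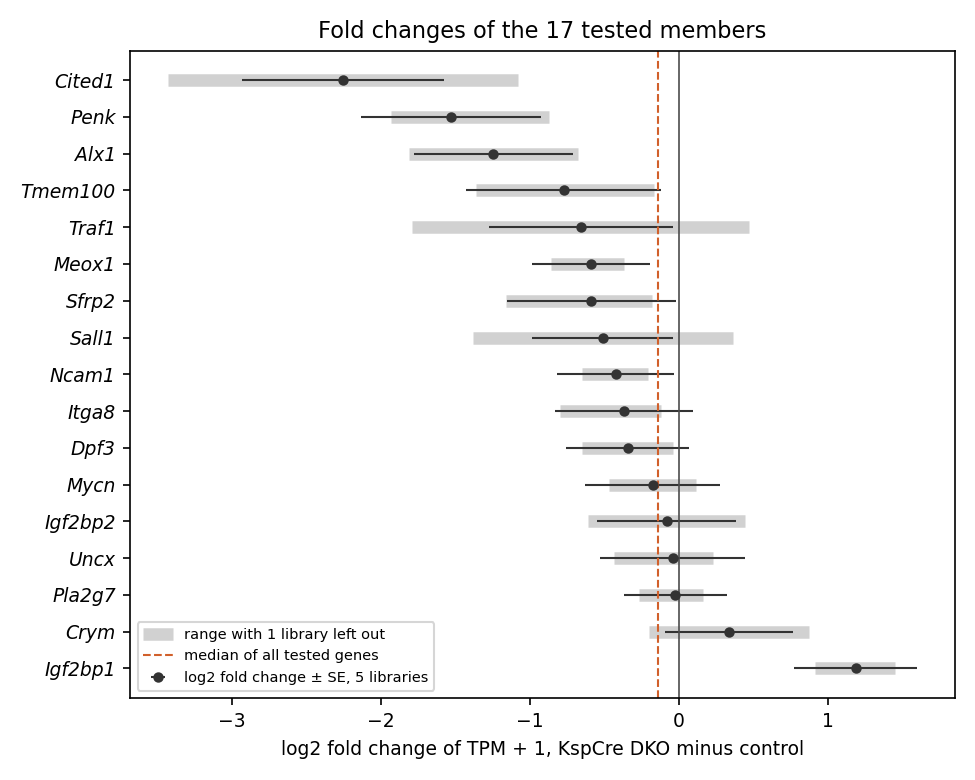
Log2 fold change of TPM + 1 with its standard error (points and black lines) for the 17 tested members, with the range reached when 1 library at a time is left out (grey bars). The dashed line is the median of all tested genes, −0.14. Cited1, Penk and Alx1 lie at −2.26, −1.53 and −1.25, and Igf2bp1 lies at 1.18. The grey bars of Sall1, Traf1, Uncx, Crym, Pla2g7, Igf2bp2 and Mycn reach across 0.

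Among the cap mesenchyme factors, Cited1, a transcriptional co-activator of the least committed cap cells, had the widest difference. Cited1 (ENSMUSG00000051159.16, chromosome X, 102247378 to 102252181, GRCm38.p6) stood at 5.49, 10.8 and 15.3 TPM across the controls, at 4.09 TPM in KspCre DKO replicate 1 and at 0 in KspCre DKO replicate 2. The groups did not overlap, but KspCre DKO replicate 1 lay close to the lowest control, and the 0 came from the library with the fewest genes above 0. The log2 fold change was −2.26 ± 0.68 (SE; limma unadjusted p = 0.00983, adjusted p = 0.304). It was −1.08 without KspCre DKO replicate 2, and −3.43 with replicate 1 of that group left out.

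Sall1 (ENSMUSG00000031665.7, chromosome 8, 89027242 to 89044162), a zinc finger factor needed for the outgrowth of the ureteric bud, was the most abundant member. It stood at 20.5, 22.1 and 19.1 TPM across the controls and at 26.6 and 7.25 TPM in KspCre DKO replicates 1 and 2. The controls agreed closely, at 20.6 ± 1.49 TPM (SD, n = 3), and 1 KspCre DKO library lay above them and the other below. The log2 fold change was −0.51 ± 0.47 (SE; limma adjusted p = 0.732). It turned to 0.36 without KspCre DKO replicate 2, and was −1.38 with replicate 1 of that group left out. By mean control TPM Sall1 ranked 4588 among the listed genes, and Pla2g7 and Cited1, the next members, ranked 6954 and 7125.

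Meox1, a homeobox factor of early mesenchyme, stood at 6.33, 2.69 and 4.69 TPM across the controls against 2.72 and 2.40 TPM. Both KspCre DKO libraries were level with control replicate 2, the lowest control, and the log2 fold change was −0.59 ± 0.40 (SE; limma adjusted p = 0.650). Uncx, another homeobox factor, stood at 0.97, 3.67 and 3.32 TPM against 2.99 and 1.75 TPM, with a log2 fold change of −0.04 ± 0.48 (SE) whose sign changed with the scaling. Its groups overlapped throughout. Osr1, an early marker of kidney mesenchyme, and Eya1, the phosphatase and co-activator that works with Six2, were below the filter. Osr1 stood at 0.73, 0.73 and 0.69 TPM against 0.58 and 0.29 TPM, lower without overlap. Eya1 stood at 0.19, 0.26 and 0.20 TPM against 0.18 and 0.75 TPM, with the KspCre DKO libraries on either side of the controls.

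**Figure D3:**
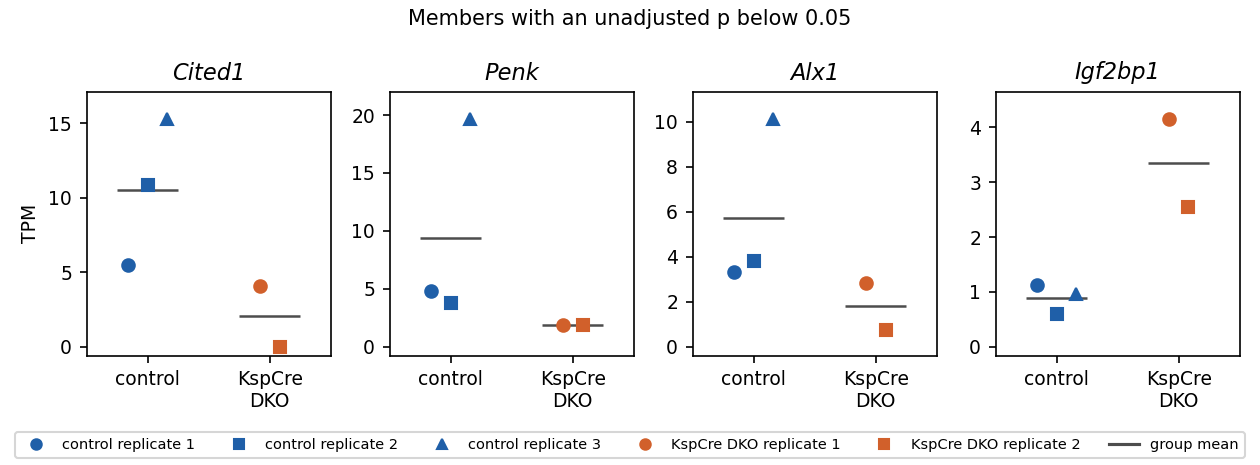
TPM in each library (points) with the group mean (bars) for the 4 members with an unadjusted p below 0.05, each on its own linear axis. Control replicate 3 stands highest for Cited1, Penk and Alx1, at 15.3, 19.6 and 10.1 TPM; for Igf2bp1 the 3 controls lie at 0.59 to 1.13 TPM and the KspCre DKO libraries at 4.15 and 2.54 TPM.

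Of the stromal progenitor genes, Penk and Alx1 passed the filter. Penk (ENSMUSG00000045573.9, chromosome 4, 4133536 to 4138815), which encodes the precursor of enkephalin peptides, stood at 4.79, 3.72 and 19.6 TPM across the controls against 1.82 and 1.90 TPM. Alx1 (ENSMUSG00000036602.14, chromosome 10, 103007847 to 103029549), a homeobox factor of mesenchyme, stood at 3.32, 3.78 and 10.1 TPM against 2.83 and 0.74 TPM. Both genes were highest in control replicate 3, and for both the groups did not overlap. The log2 fold changes were −1.53 ± 0.60 (SE) for Penk and −1.25 ± 0.53 (SE) for Alx1 (limma adjusted p = 0.429 and 0.478). Without control replicate 3 they came to −0.87 and −0.82, and Alx1 came to −0.68 without KspCre DKO replicate 2. Foxd1, the defining factor of the stromal progenitor, stood at 0.58, 0.28 and 1.34 TPM against 0.48 and 1.58 TPM, so that the groups overlapped and KspCre DKO replicate 2 was the highest library. Fibin, a secreted factor first described in fin buds, stood between 0.52 and 0.64 TPM across the controls, at 1.48 TPM in KspCre DKO replicate 1 and at 0 in KspCre DKO replicate 2.

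The fetal growth genes gave the 1 member with a higher mean at an unadjusted p below 0.05. Igf2bp1 (ENSMUSG00000013415.9, chromosome 11, 95957163 to 96005944), an RNA-binding protein that stabilises growth-related messages in the embryo, stood at 1.13, 0.59 and 0.96 TPM across the controls against 4.15 and 2.54 TPM. Each KspCre DKO library was above each control, with group means of 0.893 ± 0.276 TPM (SD, n = 3) and 3.35 ± 1.14 TPM (SD, n = 2). The log2 fold change was 1.18 ± 0.41 (SE; limma unadjusted p = 0.0201, adjusted p = 0.375). It ranged from 0.91 to 1.45 when 1 library at a time was left out. Without overlap between the groups, that step cannot change its sign. The mean of the controls alone is below 1 TPM, so Igf2bp1 passed the filter through the KspCre DKO libraries.

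Its paralogs overlapped between groups. Igf2bp2 stood at 1.89, 4.59 and 4.15 TPM against 4.93 and 1.86 TPM, with a log2 fold change of −0.08 ± 0.47 (SE). Igf2bp3 stood at 0.10, 0.28 and 0.80 TPM against 0.38 and 0.34 TPM, inside the control range. Whether Igf2bp1 differed from its paralogs in response was not tested. Hmga2, a chromatin protein of fetal cells, stood at 0.19, 0.19 and 0.22 TPM against 0.36 and 0.77 TPM. It was higher without overlap, but below 1 TPM in every library.

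The other growth genes were low or overlapped. Mycn, the Myc factor of renewing progenitors, stood at 1.71, 0.98 and 2.76 TPM against 0.97 and 1.94 TPM (log2 fold change −0.18 ± 0.45 SE). Sox11, a factor of developing tissue, ranged from 0.04 to 0.38 TPM across the controls and stood at 0.15 and 0.19 TPM in the KspCre DKO libraries. Afp, the fetal serum protein alpha-fetoprotein, stood at 0.79, 0.55 and 0.83 TPM across the controls, at 0.32 TPM in KspCre DKO replicate 1 and at 0 in KspCre DKO replicate 2. The groups of Afp did not overlap. Among markers of hepatocytes, which make this protein in the fetus, all 4 tested genes had a log2 fold change above 0, and the 6 matched markers summed to 2.98 to 42.1 TPM across the controls against 63.5 and 71.3 TPM. Most of that sum was Serpina1a in each library but control replicate 2, where Serpina1a stood at 1.18 TPM. Without it the other 5 markers summed to 4.13, 1.80 and 1.01 TPM against 7.42 and 7.54 TPM. None of the 4 passed the test by limma, and the part of liver RNA in the values of Afp was not tested.

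Among the other genes of the progenitor zone, none separated the groups above the filter. Crym, a thyroid hormone binding protein, stood at 11.9, 6.28 and 6.13 TPM against 15.0 and 6.64 TPM (log2 fold change 0.34 ± 0.43 SE). Pla2g7, a secreted phospholipase, stood at 12.6, 7.33 and 13.1 TPM against 9.08 and 12.1 TPM, with a log2 fold change of −0.02 ± 0.35 (SE). Both were among the 4 members of highest mean, and of their KspCre DKO values only that of Crym in replicate 1 lay outside the control range. Traf1, an adaptor of tumour necrosis factor receptors, stood at 2.92, 4.62 and 3.68 TPM against 5.49 and 0.36 TPM. As with Sall1, the KspCre DKO libraries lay on opposite sides of the controls, and its log2 fold change of −0.66 ± 0.62 (SE) became 0.47 without KspCre DKO replicate 2.

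The neural cell adhesion gene Ncam1 stood at 3.70, 2.42 and 5.27 TPM against 2.25 and 2.69 TPM. Dpf3, a subunit of chromatin remodelling complexes, stood at 3.21, 2.18 and 4.51 TPM against 1.67 and 3.08 TPM. Both overlapped between groups, with log2 fold changes of −0.43 ± 0.39 (SE) and −0.35 ± 0.41 (SE). Beside Ncam1 and Penk, which neural cells also express, the 9 markers of neural cells summed to 6.87 to 10.4 TPM across the controls and to 6.97 and 3.49 TPM in the KspCre DKO libraries, with Elavl4 at 0 in all 5 libraries. The part of neural cells in the values of Ncam1 and Penk was not tested. Below the filter, Spock2, a matrix proteoglycan, stood at 0.53, 1.02 and 0.51 TPM against 0.45 and 0.12 TPM, without overlap. Capn6, a calpain without protease activity, and Rspo1, a secreted enhancer of Wnt signalling, overlapped between groups, with values from 0.23 to 1 TPM and from 0.11 to 1 TPM over all libraries.

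Over the whole list, 6 members were lower without overlap (Cited1, Osr1, Spock2, Afp, Penk and Alx1), 2 were higher without overlap (Igf2bp1 and Hmga2), and 27 overlapped. Of the tested members these were 3 lower and 1 higher of 17, where 15.6% of all tested genes were lower and 10.5% were higher without overlap. Of the 18 members below the filter, 3 have a mean of 0. Among the other 15 the numbers were 3 lower and 1 higher, where 8.14% and 3.48% of the 8957 genes with a mean above 0 and below 1 TPM were lower and higher. Among tested members these shares are near those of all tested genes and are no result about the list.

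Itga8, Sfrp2 and Tmem100, chosen after their values were seen, varied widely among the controls. Itga8, the integrin of the cap and of mesangial cells, stood at 6.90, 2.33 and 7.61 TPM across the controls against 3.40 and 4.07 TPM. Sfrp2, a secreted modulator of Wnt signalling, stood at 8.87, 2.15 and 9.64 TPM against 2.47 and 5.09 TPM. Tmem100, a membrane protein of the BMP pathway, stood at 5.08, 1.81 and 13.5 TPM against 4.16 and 1.61 TPM. In all 3 genes control replicate 2 was the lowest control and the KspCre DKO libraries lay below the remaining controls. The log2 fold changes were −0.37 ± 0.46, −0.59 ± 0.57 and −0.78 ± 0.66 (SE; limma adjusted p = 0.815, 0.745 and 0.713).

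Among the summed lists of other genes, control replicate 2 was also the lowest control for stroma, podocyte, proliferation and endothelium markers. The same held for the ureteric bud tip, let-7 partner, mesothelium and hepatocyte lists. This was not so for every list: control replicate 2 was the highest control for the neural markers, and control replicate 1 the lowest for the nascent nephron list. Control replicate 3 was the lowest control for the kidney tissue, adrenal cortex and skeletal muscle lists. The 15 matched markers of stroma and fibroblasts summed to 642, 272 and 649 TPM in control replicates 1, 2 and 3 and to 306 and 330 TPM in the KspCre DKO libraries. The 9 podocyte markers summed to 280, 103 and 288 TPM against 198 and 155 TPM, and the 10 proliferation genes to 153, 70.8 and 144 TPM against 86.4 and 45.2 TPM. The 6 matched endothelial markers summed to 361, 238 and 391 TPM against 380 and 242 TPM. Of the stroma list, 13 of 14 tested members had a log2 fold change below 0, with a median of −0.72. Of the proliferation list all 10 did, with a median of −1.09, and none of either list passed the test by limma. Over all tested genes 61.7% were below 0, with a median of −0.14. Control replicate 2 was the lowest control for 10 of the 17 tested members and control replicate 3 the highest for 10. The part of stromal, glomerular and dividing cells in the members' values was not tested.

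**Figure D4:**
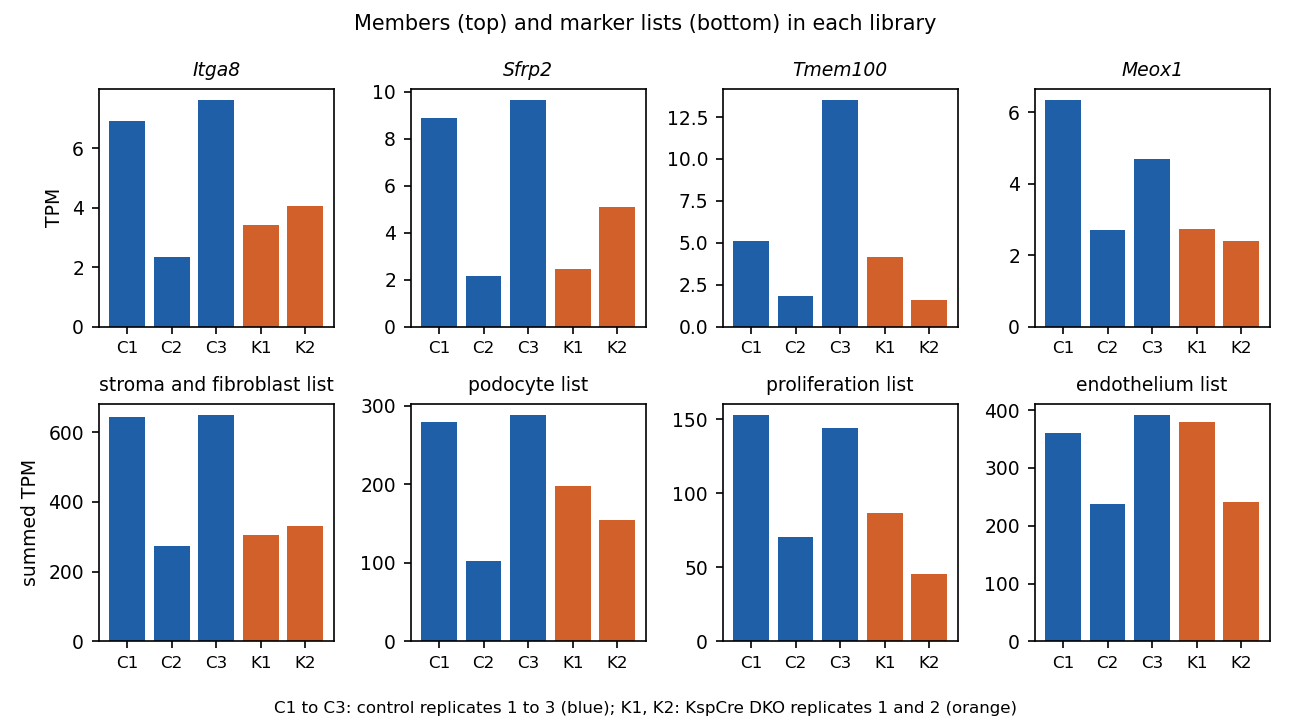
TPM of Itga8, Sfrp2, Tmem100 and Meox1 (top) and summed TPM of the stroma, podocyte, proliferation and endothelium lists (bottom) in the 3 controls (C1 to C3, blue) and the 2 KspCre DKO libraries (K1 and K2, orange), on linear axes from 0. Control replicate 2 is the lowest control in all 8 panels, for example 272 TPM against 642 and 649 TPM for the stroma list.

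The spread between controls was wide for these genes. The highest control was more than 2 times the lowest for 12 of the 17 tested members, against 22.2% of all tested genes. Between the KspCre DKO libraries, 8 of the 17 differed by more than 2 times, against 34.7% of all tested genes. Most tested members stood at low TPM, and genes of like level were not compared separately. The standard errors of the members' log2 fold changes ranged from 0.35 to 0.68.

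The steps that follow the progenitor were compared through lists of other genes. Of the nascent nephron list, 17 of 18 genes were matched and 13 tested, 7 above and 6 below 0, with a median of 0.07 and none passing the test by limma. Its most abundant members were Npnt, the ligand of the Itga8 integrin, at 118, 142 and 181 TPM against 90.8 and 52.1 TPM, and Pax8, a tubule factor, at 66.2, 85.8 and 84.5 TPM against 162 and 95.2 TPM. Npnt was lower and Pax8 higher in each KspCre DKO library than in each control (limma adjusted p = 0.309 and 0.514). Of the ureteric bud tip list, 5 of 8 tested genes were above 0 with a median of 0.52, and none passed.

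Wnt9b, the bud signal that maintains and induces the cap, stood at 4.64, 2.68 and 2.19 TPM against 33.0 and 19.3 TPM. Its log2 fold change of 2.70 ± 0.39 (SE) had a limma adjusted p of 0.0512. Wnt11, the tip signal, stood at 6.85, 7.55 and 11.5 TPM against 4.67 and 3.66 TPM (limma adjusted p = 0.427). Both Wnt genes separated the groups without overlap, in opposite directions, while Six2 was at or near 0 throughout.

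Of the partners of the let-7 pathway, 14 were tested. Of these 7 were above and 7 below 0, with a median of −0.03, and none passed the test by limma. Tut4 and Tut7, the uridyl transferases recruited by Lin28 proteins, stood at 12.4 to 15.1 TPM against 17.4 and 16.8 TPM and at 22.6 to 31.6 TPM against 27.1 and 21.0 TPM. Both Tut4 values in the KspCre DKO group lay above each control, while those of Tut7 lay on either side of the lowest control. Igf1r, the receptor of insulin-like growth factors, stood at 14.1, 10.5 and 10.4 TPM against 26.5 and 7.17 TPM, on either side of the control range. The let-7 microRNAs themselves are not measured by libraries of polyadenylated RNA.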

How the data were processed

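Per the labels' protocols, whole-kidney RNA was purified with an RNeasy kit and its polyadenylated fraction went into Illumina TruSeq libraries. Build mm10 and the tools STAR 2.2.1, RSEM 1.3.1, Trim Galore 0.5.0 and Bismark 0.19.1 appear in the submitters' processing notes, without roles. Annotation and strand setting: not given in the sources used here. The deposited values are TPM per gene, written to 2 decimals. A gene name table gave symbols for 96.9% of the 54146 identifiers. Positions and promoters come from RefSeq for GRCm38.p6, the build family of mm10, matched by symbol.

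Groups were taken from the titles: 3 controls and 2 KspCre DKO libraries of 19 samples. Genes with mean TPM of 1 or more entered the main test, limma (version 3.58.1, R 4.3.3) with empirical Bayes and an intensity trend, two-sided, on values transformed as log2(TPM + 1). P-values were adjusted by Benjamini-Hochberg over all 13963 genes, and log2 fold changes understate the change of low genes. The fit was tested on simulated data. Alternatives were a pseudocount of 0.1, no filter, 2 other scalings, a block for the replicate number and leaving out each library. The members and lists were chosen with earlier results of these data known. All 35 members are named, and of other lists those among the 4 most abundant tested genes that bear on a member or on the check of kidney tissue. The labels name no technical batch. Elavl4, Myh4, Myod1, Aqp2, Umod and the trio of Itga8, Sfrp2 and Tmem100 as a group were named after their values were seen.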

Additional observations from a re-analysis of the deposited data

How the results depend on the processing

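None of the tested members passed under 9 of 10 alternatives, with limma. The exception was the fit without KspCre DKO replicate 1, with 2 members, where 560 of all genes passed (4.04%), 470 of them lower. The count of members thus ranged from 0 to 2 when 1 library was left out. The count of all genes passing was 14 with a pseudocount of 0.1, 4 without a filter, 37 rescaled without mitochondrially encoded genes, 75 with the replicate block, and 6 to 560 with 1 library left out. At 1 TPM or more, 16, 16, 17, 18 and 16 members were detected in control replicates 1, 2 and 3 and KspCre DKO replicates 1 and 2. The median over members stayed below 0 in all 10 alternatives, from −0.55 to −0.13, the latter over 32 members in the fit without a filter. In the same fits the median over all genes ranged from −0.39 to 0.13. Without KspCre DKO replicate 1 it was lower than that of the members, at −0.39 against −0.33. Of 170 single log2 fold changes under an alternative, 22 changed sign, in 7 members, none above 0.47 in size. With 1 library left out at a time, Uncx ranged from −0.44 to 0.23, Pla2g7 from −0.27 to 0.16, Igf2bp2 from −0.61 to 0.44, Mycn from −0.47 to 0.11, Sall1 from −1.38 to 0.36, Traf1 from −1.79 to 0.47 and Crym from −0.20 to 0.87. Uncx came to 0.03 with median-of-ratios scaling, 0.04 without mitochondrially encoded genes and 0.13 with the replicate block, and Pla2g7 to 0.09, 0.08 and 0.11 in the same 3 fits. With the replicate block Igf2bp2 came to 0.04 and Mycn to 0.06. The cause was not tested. Cited1, Penk, Alx1 and Igf2bp1 kept their direction in all 10. Their groups did not overlap, so only the 2 other scalings could have turned a sign. What else libraries with the same replicate number share is not stated. Their deviations from the group means correlated at 0.093 and 0.028 across genes. With 2 KspCre DKO libraries the deviations of one mirror those of the other, so these values cannot decide on a pairing. The block leaves control replicate 3 out of the fold changes. The alternative measure of promoter CpG content was not run over the list because that check is void. TPM give no depth, so what low values can show is not known.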

Other observations

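Marker lists of neighbouring tissues differed between single libraries. The 6 markers of adrenal cortex summed to 21.9 TPM in control replicate 1 and to between 1.55 and 3.89 TPM in the other 4 libraries. The 6 markers of skeletal muscle summed to at most 1.40 TPM in each library, with Myh4 and Myod1 listed at 0 throughout. The 4 matched mesothelial markers summed to 53.1, 33.4 and 59.5 TPM across the controls and to 63.8 and 69.2 TPM in the KspCre DKO libraries.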
